A study of Mus musculus with 8 samples.

Results

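Intraepithelial lymphocytes are T cells that sit between the epithelial cells of the gut, and 10 genes that mark them were followed here through RNA-seq libraries of mouse distal colon epithelium. The genes were chosen by symbol, as Cd3d, Cd3e, Cd3g, Cd8a, Cd8b1, Cd7, Itgae, Gzma, Gzmb and Ccl5, and each matched 1 of the 54141 gene IDs in the table. All 10 passed the filter on low counts, among 16132 genes tested. The 8 libraries were 4 from wild-type mice (WT) and 4 from mice homozygous for a mutant Degs2 allele (Degs2_KO), all on a c57bl6/j background. The product of Degs2 acts on dihydroceramides and is the source of phytoceramides, membrane lipids abundant in gut epithelium. Cells had been shaken off pieces of distal colon with EDTA and strained, with no sorting step named, so lymphocytes lodged in the epithelium could come off with it. No label tells the age or sex of the mice. Each library has its own ID number, but no label ties it to a mouse of its own. A p-value here therefore sets a group difference only against the spread of these samples, which may be technical.

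As background, intraepithelial lymphocytes are mostly CD8+ T cells, with either an alpha-beta or a gamma-delta T cell receptor, held in the epithelium by an integrin that binds E-cadherin. Many carry granzymes ready for release, so they are known as a resident guard of the gut lining. Several of these genes are not exclusive to them: natural killer and other innate lymphocytes also express Cd7, Ccl5 and granzymes, some dendritic cells express Itgae and Cd8a, and some mast cells express Gzmb. In bulk RNA, fewer cells of a type and less RNA per cell cannot be told apart, and cells between epithelial cells cannot be told from those of the underlying tissue.

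The libraries held 32827388 to 49823656 fragments. Degs2 was lower in each of the 4 Degs2_KO libraries (47.7 to 65.9 CPM, the counts-per-million scale) than in each of the 4 WT libraries (106 to 151 CPM), with an exact 2-sided permutation p of 0.0286, the smallest that 70 assignments allow, and a log2 fold change of -1.07 ± 0.15 (SE) that edgeR did not call over all genes (adjusted p 0.796). The label of epithelium was matched by the epithelial markers Epcam, between 1704 and 2006 CPM, and Cdh1, between 1355 and 2123 CPM. These markers do not tell the position in the gut. A pair of libraries, WT replicate 1 and Degs2_KO replicate 3, stood apart from the other 6. Their scores on the first principal component were -53.9 and -59.1, where the others lay between -1.1 and 43. Hoxd13, a homeobox gene of the most distal gut, was at 0.699 and 0.312 CPM in them and at 38.8 to 85.3 CPM in the others. The summed level and the genotype calls are given with and without that pair.

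Messages of the 10 genes were scarce in the EDTA-released cells, and their sum differed 9.01-fold between libraries. That fold depended on the genes summed. It was 7.04 for the CD3 chains, 14.9 for the CD8 chains, 3.90 for Cd7 with Itgae and 22.4 for the granzymes with Ccl5. The 10 genes together made up 39.1, 11.1, 4.34 and 20.5 CPM in WT replicates 1 to 4 and 18.5, 13.1, 31.5 and 8.71 CPM in Degs2_KO replicates 1 to 4. The pair that stood apart was the highest and WT replicate 3 the lowest, and the range of the Degs2_KO libraries lay inside that of the WT libraries. As a share of all normalized fragments this was 0.000435% to 0.00391%, which is the share of these 10 messages and not of lymphocytes. WT libraries averaged 18.8 ± 15.1 CPM and Degs2_KO libraries 18.0 ± 9.90 CPM (SD, n = 4 each), which is a log2 ratio of -0.06. The ratio was 0.60 without WT replicate 1, -0.48 without Degs2_KO replicate 3 and 0.17 without both.

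Levels were compared between genes per kilobase of annotated exon. On this scale the mean over the 8 libraries was highest for the chemokine gene Ccl5 at 2.82 CPM per kilobase, then 2.18 for Gzma, 1.91 for Cd7 and 1.39 for Gzmb. Below them came Cd8a at 0.651, Itgae at 0.616, Cd3e at 0.432, Cd3g at 0.420, Cd8b1 at 0.313 and Cd3d at 0.293 CPM per kilobase. Neighbours in this order overlapped across libraries. Per kilobase, Cd3e had between 0.0151% and 0.121% of the level of Epcam, the epithelial adhesion molecule, and Cd8a between 0.0113% and 0.224%.

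The CD3 chains carry the signal of the T cell receptor into the cell, and their 3 genes lie side by side on chromosome 9. Cd3g (ENSMUSG00000002033, minus strand, 44969572 to 44980431) and Cd3d (ENSMUSG00000032094, plus strand, 44981786 to 44987339) start back to back with 1354 bases between them, and Cd3e (ENSMUSG00000032093, minus strand, 44998740 to 45009627) follows (GENCODE M21, GRCm38). The promoter stretches of this divergent pair are shown because both genes varied together between libraries, as all 10 genes did. A shared cause was not tested. Each covers the 250 bases before the RefSeq start (GRCm38.p6), 5′ to 3′ on the gene's own strand, with capitals for matches to AGGAAG (the core of ETS factors) or CAGGTG (an E-box) on either strand.
Cd3d, chr9:44981536-44981785, plus strand: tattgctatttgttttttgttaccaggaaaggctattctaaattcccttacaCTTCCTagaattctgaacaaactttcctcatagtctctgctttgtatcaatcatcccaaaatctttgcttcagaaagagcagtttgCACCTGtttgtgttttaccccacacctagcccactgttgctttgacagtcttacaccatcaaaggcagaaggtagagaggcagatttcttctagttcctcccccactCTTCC
Cd3g, chr9:44980432-44980681, minus strand: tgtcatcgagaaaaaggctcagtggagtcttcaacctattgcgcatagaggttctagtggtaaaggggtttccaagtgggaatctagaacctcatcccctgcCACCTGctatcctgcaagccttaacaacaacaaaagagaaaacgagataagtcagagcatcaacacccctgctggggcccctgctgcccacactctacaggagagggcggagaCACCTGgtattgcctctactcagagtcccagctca
Cd3d held an E-box at 112 bases before its start and an ETS core at 198, with a second ETS core that runs across the start, so that its last base lies past the stretch shown. Distances count to the first base of a match. Cd3g held E-boxes at 148 and 35 bases before its start and no ETS core in this window.

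Cd3e was at 3.85, 1.24, 0.501 and 2.15 CPM in WT replicates 1 to 4 and at 1.397, 1.16, 2.97 and 0.830 CPM in Degs2_KO replicates 1 to 4. It was highest in the pair that stood apart and lowest in WT replicate 3, and the genotypes overlapped. Cd3g was at 2.12, 0.714, 0.334 and 2.03 CPM in WT and at 1.54, 1.07, 2.42 and 0.759 CPM in Degs2_KO. Cd3d, the lowest of the 3, was at 0.747, 0.405, 0.119 and 0.764 CPM in WT and at 0.554, 0.617, 0.743 and 0.308 CPM in Degs2_KO. Its 0.119 CPM in WT replicate 3 rested on 5 fragments (exact Poisson 95% interval 1.62 to 11.7, counting error only). The same library was thus lowest for each CD3 chain, while WT replicate 4 was as high in Cd3d as the pair that stood apart. Log2 fold changes of Degs2_KO over WT were -0.28 ± 0.60 (SE) for Cd3e, 0.16 ± 0.58 for Cd3g and 0.13 ± 0.51 for Cd3d.

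**Figure D1:**
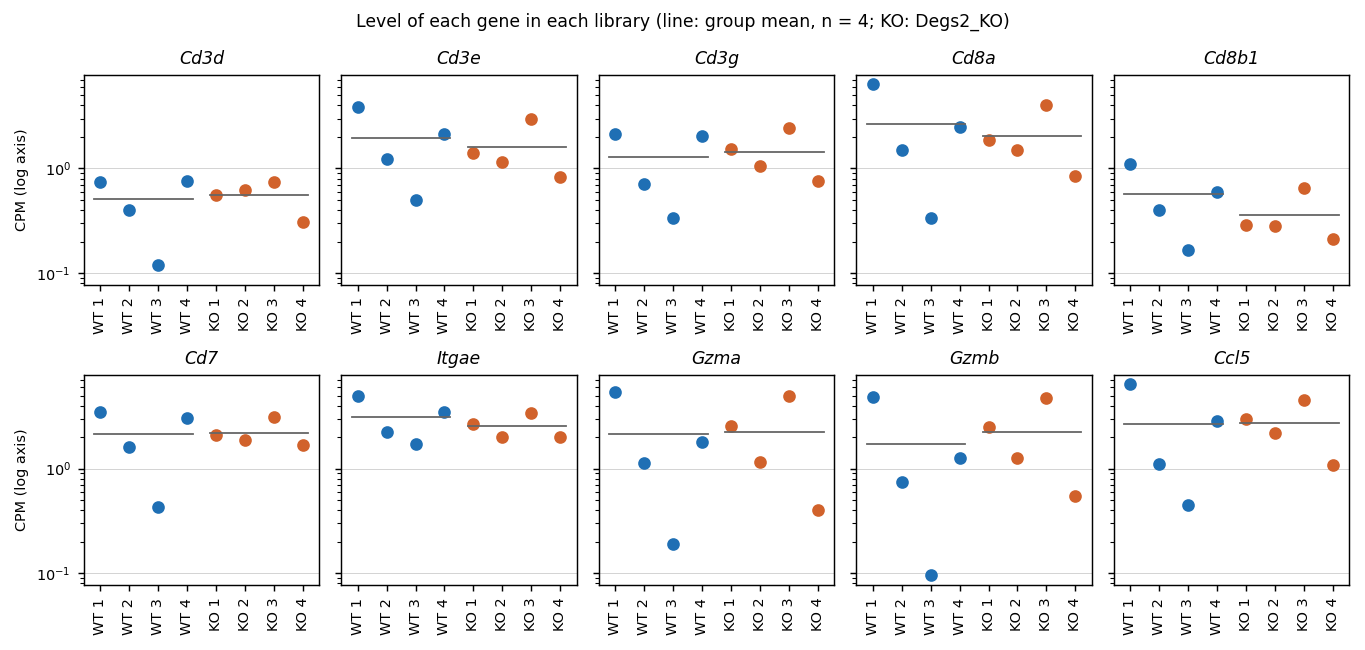
CPM of each of the 10 genes on a log axis in the 4 WT (blue) and 4 Degs2_KO (orange, KO) libraries, with a line at each group's mean. WT replicate 3 is the lowest point in all 10 panels, and WT replicate 1 the highest in 8.

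Cd8a and Cd8b1 encode the chains of CD8, the coreceptor for MHC class I, either as an alpha homodimer, frequent on intraepithelial lymphocytes, or as an alpha-beta pair. They lie on the plus strand of chromosome 6, Cd8b1 (ENSMUSG00000053044) from 71322788 to 71337494 and Cd8a (ENSMUSG00000053977) from 71373427 to 71379173. Cd8a was at 6.38, 1.5, 0.334 and 2.48 CPM in WT replicates 1 to 4 and at 1.88, 1.49, 4.004 and 0.854 CPM in Degs2_KO replicates 1 to 4. Cd8b1 was at 1.11, 0.405, 0.167 and 0.597 CPM in WT and at 0.289, 0.285, 0.647 and 0.213 CPM in Degs2_KO. Both were highest in WT replicate 1 and then Degs2_KO replicate 3, and the genotypes overlapped. Log2 fold changes were -0.38 ± 0.76 for Cd8a and -0.66 ± 0.57 for Cd8b1. Cd4, which marks helper T cells, stayed between 0.0238 and 0.240 CPM, or 1 to 10 fragments a library against 15 to 202 for Cd8a.

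Cd7 encodes an immunoglobulin-family surface protein of T and innate lymphocytes, and Itgae the alpha E chain (CD103) of the integrin that holds lymphocytes to E-cadherin. Cd7 (ENSMUSG00000025163, chromosome 11, minus strand, 121036747 to 121039418) was at 3.44, 1.60, 0.430 and 3.03 CPM in WT and at 2.12, 1.898, 3.12 and 1.68 CPM in Degs2_KO. Itgae (ENSMUSG00000005947, chromosome 11, plus strand, 73090583 to 73147446) was at 4.94, 2.26, 1.72 and 3.51 CPM in WT and at 2.67, 2.02, 3.43 and 2.02 CPM in Degs2_KO. Itgae varied least of the 10, with a within-group SD of 0.53 on the log2 CPM scale, and its highest and lowest libraries differed 2.87-fold. No source used here tells whether fragments were assigned by strand. Haspin, a kinase gene on the opposite strand within Itgae, was at a mean of 9.32 CPM, and Gm11775, antisense to Cd7, at 0.794 CPM, so fragments of these pairs may be mixed. Log2 fold changes were 0.05 ± 0.53 for Cd7 and -0.29 ± 0.34 for Itgae.

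Granzymes A and B are serine proteases that cytotoxic lymphocytes deliver into target cells, and Ccl5 is a chemokine that such cells store and release. Gzma (ENSMUSG00000023132) lies on chromosome 13, minus strand, from 113093825 to 113100981, Gzmb (ENSMUSG00000015437) on chromosome 14, minus strand, from 56258838 to 56262260, and Ccl5 (ENSMUSG00000035042) on chromosome 11, minus strand, from 83525778 to 83530518. The granzyme promoter stretches are shown because these genes had the widest spread of the 10 and lie on different chromosomes. They are drawn as above, with capitals for TGTGGT (the core of RUNX factors) or CAGGTG on either strand.
Gzma, chr13:113100982-113101231, minus strand: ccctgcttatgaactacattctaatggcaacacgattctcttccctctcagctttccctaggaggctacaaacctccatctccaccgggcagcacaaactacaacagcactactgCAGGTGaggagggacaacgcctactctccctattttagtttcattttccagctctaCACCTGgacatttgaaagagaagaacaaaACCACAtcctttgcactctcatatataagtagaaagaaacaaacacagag
Gzmb, chr14:56262335-56262584, minus strand: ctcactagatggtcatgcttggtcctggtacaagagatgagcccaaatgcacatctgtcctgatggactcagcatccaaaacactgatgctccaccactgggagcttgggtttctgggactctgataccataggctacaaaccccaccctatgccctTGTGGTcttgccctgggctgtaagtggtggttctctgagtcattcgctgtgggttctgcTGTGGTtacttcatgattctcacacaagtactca
The RUNX core stood at 50 bases before the Gzma start and at 93 and 34 bases before the Gzmb start, and Gzma also held E-boxes at 135 and 79 bases. RefSeq windows, from 250 bases before to 50 after the start, matched 6 of the 10 genes, which were Cd3d, Cd3e, Cd3g, Cd8a, Gzma and Gzmb. Of these 6, 2 held the RUNX core (16.8% of all 32851 windows), 4 the E-box (20.2%), 2 the ETS core (35.4%) and 0 the T-box letters GGTGTGA (3.98%). These are matches of letters, not shown sites of binding.

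Gzmb was at 4.79, 0.738, 0.0955 and 1.26 CPM in WT replicates 1 to 4 and at 2.50, 1.26, 4.72 and 0.546 CPM in Degs2_KO replicates 1 to 4. In WT replicate 3 it rested on 4 fragments (exact Poisson 95% interval 1.09 to 10.2), against 152 in WT replicate 1. Gzma was at 5.37, 1.14, 0.191 and 1.79 CPM in WT and at 2.55, 1.16, 4.92 and 0.403 CPM in Degs2_KO. The pair that stood apart was therefore highest for both granzymes in either genotype, and the other 6 libraries reached at most 2.55 CPM. Ccl5 was at 6.38, 1.12, 0.454 and 2.84 CPM in WT and at 2.99, 2.18, 4.58 and 1.09 CPM in Degs2_KO, in nearly the same order. Log2 fold changes were 0.39 ± 0.95 for Gzmb, 0.09 ± 0.92 for Gzma and 0.01 ± 0.73 for Ccl5.

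The genotype comparison asked whether lymphocyte RNA in the colonic epithelium differs when Degs2 is mutated, and it called none of the 10 genes. edgeR's quasi-likelihood test, adjusted over all tested genes, passed 0 of 10 at 0.05, where it passed 0 of 16132 in all (0.0%, smallest adjusted p 0.796). At an unadjusted p under 0.05 there were also 0 of 10, against 1.13% of all tested genes (0.329% higher and 0.806% lower in Degs2_KO), and 0 with DESeq2 or limma-voom. Groups did not overlap for 0 of 10, against 1.04% of all tested genes. Of the 10 genes 6 had higher and 4 lower values in Degs2_KO, with a median log2 fold change of 0.03 beside -0.007 for all tested genes. The count of higher genes was 9 without WT replicate 1, 2 without WT replicate 2 and 0 without WT replicate 3 or without Degs2_KO replicate 3, so single libraries set the direction. Without the pair that stood apart it was 6, with 0 called.

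These libraries left room for sizable differences in either direction. The 95% interval of the Degs2_KO to WT ratio ran from 0.478 to 1.39 for Itgae, from 0.320 to 2.11 for Cd3e and from 0.232 to 2.55 for Cd8a. For the granzymes it was wider, 0.251 to 4.51 for Gzma and 0.292 to 5.87 for Gzmb. The median standard error of the 10 log2 fold changes was 0.59, beside 0.16 over all tested genes. The within-group SD of log2 CPM had a median of 0.995 over the 10 genes and 0.23 over all tested genes. It was 0.42 over the 3169 tested genes in the same range of mean CPM.

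**Figure D2:**
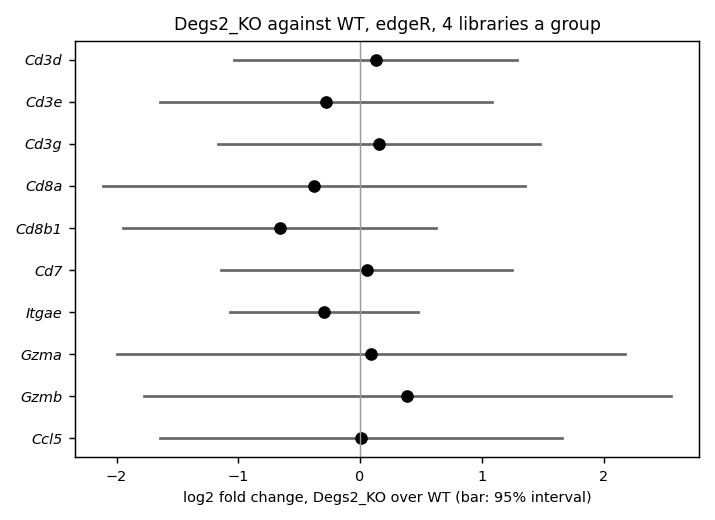
Log2 fold change of Degs2_KO over WT for each gene (point) with its 95% interval (bar), from edgeR with 4 libraries a group. Every interval crosses 0, and those of Gzma and Gzmb are the widest.

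Across libraries the 10 genes kept nearly 1 order that ran through both genotypes. WT replicate 3 was the lowest library for 10 of 10 genes, as it was for 16.0% of all tested genes. WT replicate 1 and Degs2_KO replicate 3 were both above the other 6 libraries for 8 of 10, as for 17.8% of all tested genes. The exceptions were Cd3d, highest in WT replicate 4, and Itgae, where WT replicate 4 was second. Degs2_KO replicate 4 was among the lowest 2 libraries for 7 of the 10. Since these genes vary together, they are not 10 separate observations of that order.

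The genes did not vary in equal measure. The ratio of Gzmb to Cd3e CPM was 1.24, 0.596, 0.190 and 0.589 in WT replicates 1 to 4 and 1.79, 1.08, 1.59 and 0.657 in Degs2_KO replicates 1 to 4. The ratio of Gzma to Cd3e ran from 0.381 to 1.83, again lowest in WT replicate 3. Itgae to Cd3e went the other way, from 1.15 in Degs2_KO replicate 3 to 3.43 in WT replicate 3. Granzyme messages thus changed more between libraries than CD3 messages, and Itgae less. The within-group SD on the log2 CPM scale was 1.74 for Gzmb, 1.69 for Gzma, 1.36 for Cd8a and 1.28 for Ccl5. For Cd3e, Cd3g, Cd7, Cd8b1 and Cd3d it was between 0.83 and 1.004.

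Genes of the T cell receptor itself followed the 10 genes in part. Both receptor types were measured, with the alpha constant gene Trac at a mean of 0.745 CPM and the delta constant gene Trdc at 0.736 CPM. Per kilobase Trac was at 0.797 and Trdc at 0.190 CPM. The gamma constant gene Tcrg-C2 was at 2.96, 0.714, 0.287 and 1.43 CPM in WT replicates 1 to 4 and at 1.01, 1.26, 2.21 and 0.427 CPM in Degs2_KO replicates 1 to 4. It was highest in the pair that stood apart and lowest in WT replicate 3. Of the 8 constant genes 7 were tested and 0 called, with 3 higher and 4 lower and a median log2 fold change of -0.04. WT replicate 3 was lowest for 6 of the 7, and the pair that stood apart was on top for 4 of the 7. Trac was higher in WT replicate 4 (1.26 CPM) than in Degs2_KO replicate 3 (1.15 CPM), and so was Trdc (1.03 and 0.911 CPM).

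Likeness in pattern was measured as Pearson's r, over the 8 libraries, between a gene's log2 CPM and the mean standardised log2 CPM of the 10 genes. It is a description, since the libraries share their differences in makeup and depth. Among the 7 tested receptor constant genes the median r was 0.95. Of 20 tested receptor signalling genes 14 were above 0.8, and 7 had higher and 13 lower values in Degs2_KO, with 0 called. The kinase genes Lck and Fyn, which relay the receptor signal, had means of 3.62 and 2.905 CPM and r of 0.92 and 0.93. Thy1, a surface glycoprotein of T cells, was at 1.17 CPM with r at 0.92. The adaptor gene Grap2 was at 4.63 CPM with r at 0.79, and Rasgrp1, a Ras activator, at 1.05 CPM with r at 0.85. Fyb, another adaptor, was at 5.60 CPM with r at 0.63. Trat1, which encodes a receptor-associated adaptor, went against the rest, at 1.66 CPM with r at -0.40 and its highest level in Degs2_KO replicate 4.

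Effector and innate receptor genes were scarcer. Of 16 further cytotoxic genes 7 were tested, with 1 higher, 6 lower and 0 called. Srgn, the proteoglycan that packs granules, was at 1.005 CPM with r at 0.985. Ctsw, a cathepsin of cytotoxic cells, was at 1.25 CPM with r at 0.96. Serpinb9, an inhibitor of granzyme B, was at 3.80 CPM with r at 0.27. Prf1, Ifng, Gzmk, Gzmc, Fasl, Ccl3 and Ccl4 had 0 fragments in at least 1 library. Xcl1, a chemokine of CD8+ cells, was at 0.416 CPM. Of 15 natural killer type receptor genes 9 were tested, with 5 higher, 4 lower and 0 called, and Cd160 was at 1.13 CPM with r at 0.92.

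Genes of homing, residence and regulation split by pattern. Of 29 genes 24 were tested, with 14 higher, 10 lower and 0 called. Itgb7, whose product pairs with the Itgae chain, was at 1.32 CPM with r at 0.91. Il2rb and Il2rg, chains of the interleukin-15 receptor, were at 1.58 and 1.23 CPM with r at 0.91 and 0.86. Runx3, a transcription factor of CD8+ cells, was at 1.017 CPM with r at 0.95, and Ikzf3 at 1.15 CPM with r at 0.88. The integrin gene Itgal was at 1.33 CPM with r at 0.89, the adhesion gene Jaml at 1.64 CPM with r at 0.77 and the transcription factor gene Tcf7 at 5.38 CPM with r at 0.77.

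A second set from the same list did not follow. Bcl11b and Id2, transcription regulators of lymphocytes, were at 35.1 and 24.0 CPM with r at -0.34 and 0.07. Ahr, the aryl hydrocarbon receptor, was at 21.3 CPM with r at -0.86, and the integrin gene Itga1 at 19.0 CPM with r at -0.36. Bcl11b, Id2, Ahr and Itga1 were thus all above the leukocyte marker Ptprc, at a mean of 9.83 CPM. Bulk RNA does not tell which cells their messages came from. Gpr55, a lysolipid receptor, was at 1.95 CPM with r at 0.22, and the integrin gene Itga4 at 1.297 CPM with r at 0.35. In all, 14 of the 67 tested genes in the 5 T cell and innate lymphocyte lists had r below 0.5.

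**Figure D3:**
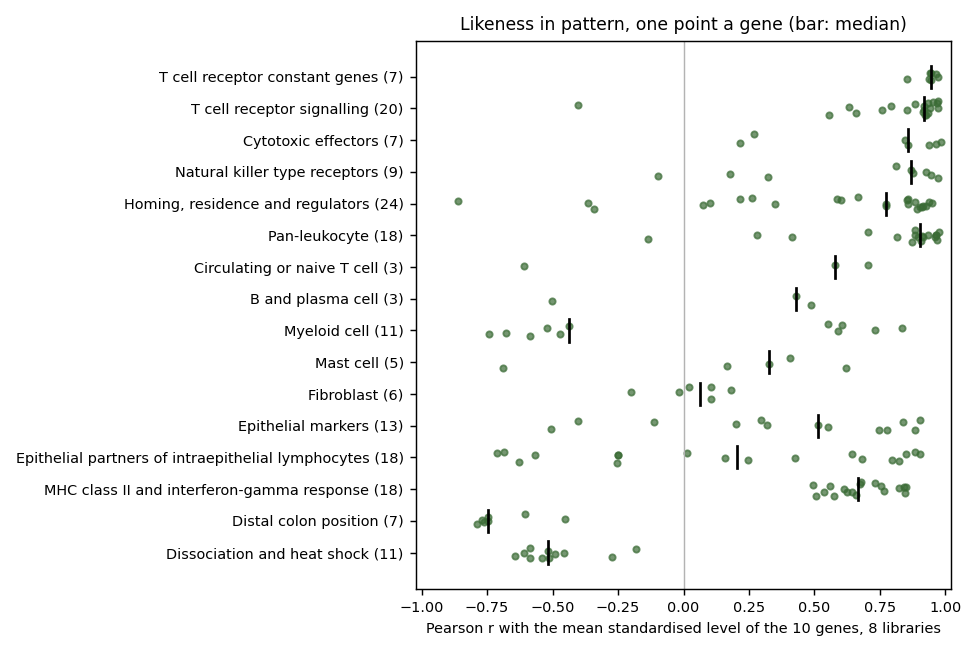
Pearson r over 8 libraries between each tested gene's log2 CPM and the mean standardised level of the 10 lymphocyte genes, by list, 1 point a gene and a bar at the median. Receptor constant genes have a median of 0.95, and distal colon position genes one of -0.75. Without WT replicate 1 and Degs2_KO replicate 3, which is not drawn, these medians were 0.94 and -0.46.

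Ptprc, the leukocyte marker CD45, was at 16.2, 7.24, 5.51 and 10.7 CPM in WT replicates 1 to 4 and at 11.1, 8.59, 12.0 and 7.31 CPM in Degs2_KO replicates 1 to 4, with r at 0.97. Its order of libraries was close to that of the 10 genes. Its range was narrower, 2.93-fold, and its log2 fold change was -0.02 ± 0.32. Of 18 pan-leukocyte genes 14 had r above 0.8, with 5 higher, 13 lower and 0 called. Those with the smallest unadjusted p were Cytip at a log2 fold change of -0.39 ± 0.27 and Cd37 at -0.32 ± 0.24.

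Among the 15 genes closest in pattern, of 13238 with a mean of at least 1 CPM, were Srgn, Trafd1, Spn, Ikzf1, Ogfr, Gimap3, Tcrg-C2, Mlkl, Acap1, Coro1a, Ptprc, Laptm5, Gimap4 and Ctsw, with r from 0.963 to 0.985. Spn encodes the leukocyte sialoglycoprotein CD43, Ikzf1 the lymphocyte factor Ikaros, Coro1a a coronin of leukocytes, and Gimap3 and Gimap4 GTPases of lymphocytes. Trafd1 (28.0 to 72.6 CPM), Ogfr (52.3 to 82.5 CPM) and Mlkl (17.8 to 32.7 CPM) were far more abundant than the lymphocyte genes. Of all tested genes other than the 10, 1.38% had r above 0.9.

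Markers of other cells were measured beside these genes, and their part in the result was not tested. The summed B and plasma cell list (14 genes) ran from 2.48 to 9.83 CPM in WT and from 2.76 to 4.86 CPM in Degs2_KO, and 6 of the 14 had 0 fragments in at least 1 library, Cd79a, Cd79b and Cd22 among them. Its highest library was WT replicate 4, not the pair that stood apart. The median r of its 3 tested genes was 0.43 over all 8 libraries and 0.82 without that pair. Igha, the IgA heavy chain gene, had a log2 fold change of -0.95 ± 0.67 and Derl3, an endoplasmic reticulum gene of plasma cells, 0.28 ± 0.37. The myeloid list (17 genes) summed to 31.5 to 44.0 CPM in WT and 29.3 to 48.6 CPM in Degs2_KO, of which Cd14 alone was 21.1 to 40.3 CPM. Clec9a, Xcr1, S100a8, S100a9 and C1qc had 0 fragments in at least 1 library. The median r of the 11 tested was -0.44 over all 8 libraries and 0.39 without the pair that stood apart, so the sign rested on that pair. C1qa, a complement gene of macrophages, had a log2 fold change of -1.50 ± 0.72 with 2.51 CPM in WT replicate 1 and 0.193 to 0.456 CPM in the others, and Itgax, an integrin of dendritic cells, -0.37 ± 0.43.

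Mast cell and fibroblast lists had a median r of 0.33 and 0.06 over all 8 libraries. Without the pair that stood apart these medians were -0.25 and 0.55, so the fibroblast value depended on that pair. The mast cell list (10 genes) summed to 98.6 to 127 CPM in WT and 88.7 to 135 CPM in Degs2_KO, nearly all from Kit at a mean of 106 CPM. Tpsab1 was at 0 in all 8 libraries, and Cpa3, Mcpt4, Fcer1a and Ms4a2 in at least 1. Log2 fold changes were 0.33 ± 0.54 for the protease gene Cma1 and 0.09 ± 0.14 for Kit. The fibroblast list (8 genes) summed to 5.25 to 37.5 CPM in WT and 1.898 to 18.7 CPM in Degs2_KO, highest in WT replicate 4, with Lum and Pdgfra at 0 in at least 1 library. Dcn and Col6a2, matrix genes, had log2 fold changes of -1.32 ± 0.83 and -1.15 ± 0.74. All 6 tested fibroblast genes had lower values in Degs2_KO, with 0 called and a median of -0.97, which was 0.07 without WT replicate 4 and -1.87 without Degs2_KO replicate 1. The list of circulating or naive T cell genes summed to 3.98 to 42.8 CPM in WT and 3.14 to 45.9 CPM in Degs2_KO, mostly Klf2 (log2 fold change 0.30 ± 0.86), and Il7r was at -0.71 ± 0.56. Ccr7, a lymph node homing receptor, was at 0 in at least 1 library.

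**Figure D4:**
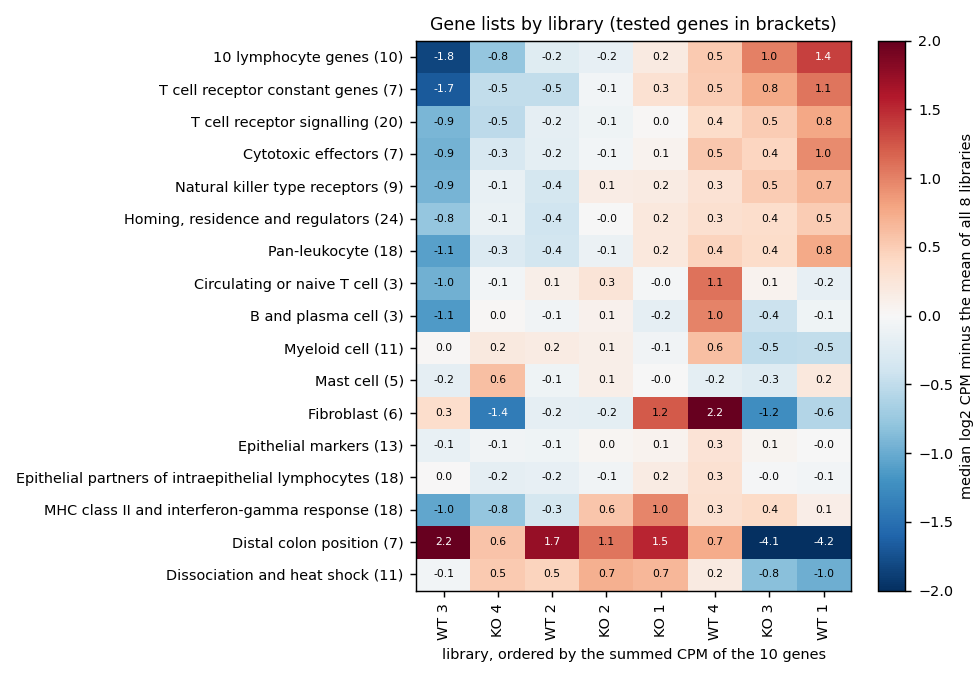
Median log2 CPM of each list's tested genes minus the mean of the 8 libraries, with libraries ordered by the summed CPM of the 10 lymphocyte genes. The 10 genes are lowest at -1.84 (WT replicate 3) and highest at 1.37 (WT replicate 1), while the fibroblast list peaks in WT replicate 4 at 2.23.

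Epithelial genes whose products meet intraepithelial lymphocytes mostly did not share the order of the 10 genes. Of the 18 tested, 4 had r above 0.8 and 11 below 0.5, with a median of 0.20 and a lowest value of -0.71, and the list's sum differed 1.35-fold between libraries. H2-T3, the thymus leukemia antigen that binds CD8 alpha homodimers, was at 64.0, 4.52, 7.47 and 26.8 CPM in WT replicates 1 to 4 and at 20.03, 12.4, 67.1 and 8.97 CPM in Degs2_KO replicates 1 to 4. Btnl1, a butyrophilin-like protein that supports gamma-delta intraepithelial cells, was at 71.7, 22, 32.0 and 52.7 CPM in WT and at 48.7, 34.9, 81.8 and 25.8 CPM in Degs2_KO. Both were highest in the pair that stood apart, then in WT replicate 4 and Degs2_KO replicate 1, and both were lowest in WT replicate 2 and not in WT replicate 3. Their r was 0.85 and 0.80, and 0.67 and 0.57 over the 6 other libraries. Il15, the cytokine that keeps these lymphocytes alive, averaged 9.91 ± 1.299 CPM in WT libraries and 8.61 ± 2.04 CPM in Degs2_KO libraries (SD, n = 4 each), with r at 0.01. In Degs2_KO 6 of the 18 were higher, 12 lower and 0 called. The T cell chemokine gene Cxcl9 had a log2 fold change of 1.01 ± 0.51 and the cytokine gene Il7 -0.18 ± 0.11.

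**Figure D5:**
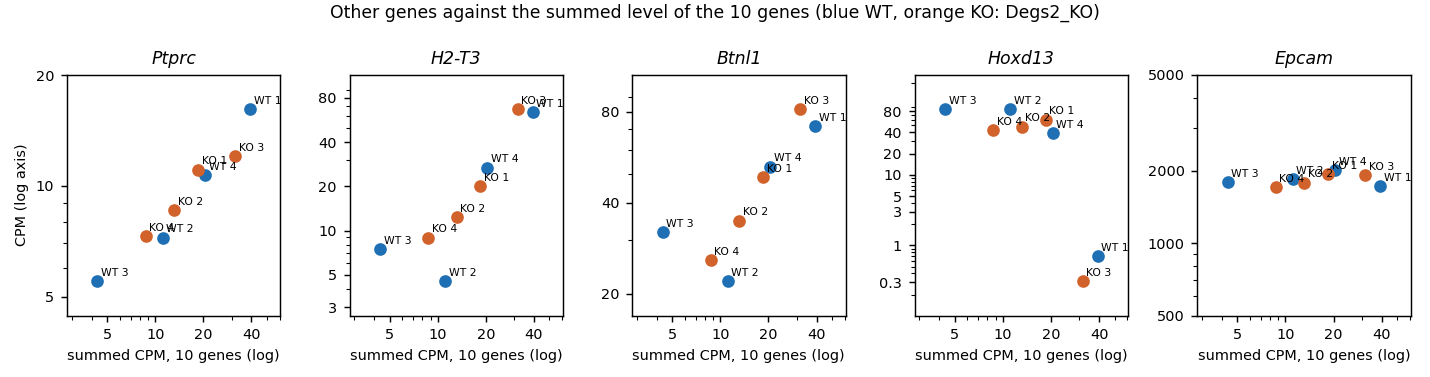
CPM of 5 other genes against the summed CPM of the 10 lymphocyte genes, both on log axes, 1 labelled point a library. Ptprc and H2-T3 are high where the lymphocyte genes are high, Hoxd13 is under 1 CPM in WT replicate 1 and Degs2_KO replicate 3, and Epcam stays between 1704 and 2006 CPM.

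MHC class II and interferon-gamma response genes shared the order of the lymphocyte genes in part. Over all libraries their r ran from 0.495 to 0.85, with a median of 0.67. Without the pair that stood apart the median r was 0.81. Of 18 tested genes 17 were higher and 1 lower in Degs2_KO, and their median log2 fold change was 0.63, with 0 called. The median was 0.31 without Degs2_KO replicate 1. Dissociation and heat shock genes were also higher in Degs2_KO for 11 of 11, with a median of 0.34 and 0 called, and single libraries left out gave 0.14 (WT replicate 1) to 0.62 (Degs2_KO replicate 3). Their part in the class II values was not tested. Of the 18 class II and interferon-gamma genes, 2 were higher at an unadjusted p under 0.05, against 0.329% of all tested genes. They were H2-Eb1 at 1.502 ± 0.58 and H2-DMb1 at 1.11 ± 0.44, whose products take part in class II presentation. The list was chosen with earlier results of these data known, and its genes vary together. The 17 higher genes and these 2 are therefore not separate observations and no support for a genotype difference. WT replicate 3 was lowest for 15 of the 18, as for the lymphocyte genes, but the pair that stood apart was on top for 0 of 18. Ifng itself, the lymphocyte cytokine that induces these genes, was between 0 and 0.12 CPM.

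Distal position and handling genes summed lower in the pair that stood apart, where the summed lymphocyte genes were highest. Their part in the result was not tested. The 7 distal colon position genes summed to 252 and 249 CPM in WT replicate 1 and Degs2_KO replicate 3 and to 500.5 to 639 CPM in the others. Hoxd10, Hoxd11 and Hoxd12 were at 0 in at least 1 library. None of the 7 was called, and the log2 fold changes were -0.13 ± 0.15 for Hoxa11os and -0.77 ± 1.21 for Hoxd10. Dissociation and heat shock genes summed to 1169 and 1272 CPM in that pair and to 2642 to 4131 CPM in the others, with log2 fold changes of 0.85 ± 0.58 for Hspa1a and 0.27 ± 0.20 for Dnajb1. Car1, a carbonic anhydrase of the colon epithelium, was at 6179 and 6570 CPM in that pair and at 522 to 1941 CPM in the others. Within the other 6 libraries the summed lymphocyte genes still ran from 4.34 CPM in WT replicate 3 to 20.5 CPM in WT replicate 4. The 13 epithelial markers differed at most 1.39-fold in sum, with log2 fold changes of 0.20 ± 0.09 for Krt18 and -0.18 ± 0.22 for Slc26a3.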

How the data were processed

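The authors deposited estimated counts of fragments for every gene and library, beside a word on each estimate's status. The submitters' processing notes name cutadapt 1.9, TopHat2 2.0.10, Cufflinks 2.1.1, Cuffdiff and mm10, and no source used here names the annotation. Low values were multiples of 1 step per library (0.871 to 1.31), and 96.9% to 97.2% of values up to 100 were whole within 0.02 once divided by it, which gave the fragments. The 24 other per-library columns were not used, and 47 genes with a failed estimate were left out.

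Estimated counts were rounded, filtered with filterByExpr (minimum count 10, total 15), normalized with TMM and tested with edgeR 4.0.16 (R 4.3.3), 2-sided, with Benjamini-Hochberg adjustment over 16132 genes. The group was the only term, and the fit was tested on simulated data. CPM is on the TMM scale, with a prior count of 2 for logs. Alternatives included DESeq2 1.42.0, limma 3.58.1 (voom) and each library left out.

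The 10 genes and the 20 lists were chosen with earlier results of these data known. Named genes are the 10, Degs2, lymphocyte list genes of at least 1 CPM, the 2 smallest-p genes of other lists, the 15 closest in pattern and some fixed markers. A gene that this rule names is not reported here. Others named, such as Hoxd13, Car1, Cd14, Trac and Trdc, were chosen after their values were seen.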

Additional observations from a re-analysis of the deposited data

Results flagged for a closer look

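No library stood out for any of the 10 lymphocyte genes or for Degs2 within its group of 4. Of the marker lists set beside them, 4 had 1 library far from the 3 others of its group. The summed B and plasma cell genes were at 9.83 CPM in WT replicate 4, where the other WT libraries lay between 2.48 and 3.71 CPM. The fibroblast genes were at 37.5 CPM in the same library, against 5.25 to 10.8 CPM. In Degs2_KO replicate 3 the distal colon position genes were at 249 CPM, against 500.5 to 532 CPM in the other Degs2_KO libraries. The dissociation and heat shock genes were at 1272 CPM there, against 3793 to 4131 CPM. Of 56 groups checked, 4 were past the limit, which about 1 in 20 separate groups would pass by chance. The 56 are not separate, since they share the same 8 libraries. The cause of these 4 was not tested.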

How the results depend on the processing

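Over 18 alternatives, 1 of them chosen after seeing the data (the authors' scaling undone), none of the 10 genes was called, and the smallest adjusted p of any was 0.879. Of 173 log2 fold changes recomputed for them, 148 kept their sign and 25 turned. Leaving out single libraries gave ranges of -0.199 to 0.389 for Cd3d, -0.775 to 0.306 for Cd3e, -0.21 to 0.507 for Cd3g, -0.924 to 0.526 for Cd8a, -1.108 to -0.109 for Cd8b1, -0.286 to 0.398 for Cd7, -0.493 to 0.031 for Itgae, -0.63 to 1.124 for Gzma, -0.263 to 1.696 for Gzmb and -0.371 to 0.891 for Ccl5. The other turns were Cd3e at 0.183 and Cd8a at 0.346 with a block on 3 pairs of libraries with neighbouring ID numbers, Cd8a at 0.062 with limma-voom, Ccl5 at -0.002 with a higher minimum (1 CPM in every library of at least 1 genotype, 50 counts in total), and Gzma at -0.019 with the replicate block. The replicate block called 0 genes and turned no other of the 10. Deviations of same-numbered libraries from their group means correlated between -0.56 and 0.444, and those of the ID pairs between -0.53 and 0.205. With so few pairs, these values cannot tell whether the samples were paired. The replicate block left 99 genes under an unadjusted p of 0.05, against 183 as reported. That count was 79 with the ID block, 401 with no filter, 782 with WT replicate 1 left out, 298 with Degs2_KO replicate 1 left out, 292 with Degs2_KO replicate 3 left out and 650 with both libraries that stood apart left out. The higher minimum kept 3 of the 10 genes. DESeq2 called 2 genes over all, Degs2 and Dlk1, where edgeR and limma-voom called 0. It gave Degs2 a log2 fold change of -1.063 with an adjusted p of 6.955e-07, where the other alternatives gave 0.422 to 1. Where a value turned, the cause was not tested. Depth limits the lowest values: 3 fragments are a scaled count of 2.61 to 3.93.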

Other observations

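Over the 6 libraries without WT replicate 1 and Degs2_KO replicate 3, a choice made after seeing the data, the 15 genes closest in pattern to the 10 lymphocyte genes had r from 0.98 to 0.992. Leukocyte genes among them were Ikzf1, Il2rb, Coro1a, Srgn and Rgs1, the last a regulator of G protein signals in lymphocytes. The others were Ifi27l2b, Glmp, Lpcat3, Lgals3bp, Ly6a, Usp18, Rhof, Vdac2, Mlkl and Mpi, of which Usp18 ranged from 2.70 to 20.6 CPM and Vdac2 from 390.3 to 456 CPM. Srgn, Ikzf1, Mlkl and Coro1a were also among the 15 closest over all 8 libraries. With 6 libraries, 274 tested genes had r above 0.9, so this likeness is no finding about any single gene.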
